A study of Mus musculus with 21 samples.

Results

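The nuclear genes of the mitochondrial respiratory chain were followed here through maps of vitamin D receptor (VDR) binding and of open chromatin in mouse intestinal epithelium. The set was defined by gene symbol. It held every nuclear protein-coding gene of the mm9 mouse genome annotation whose symbol starts with Nduf, Uqcr, Atp5, Cox4 to Cox8, or that is Sdha, Sdhb, Sdhc or Sdhd. This gave 92 gene models of 22367, called members below, under 91 distinct symbols because Ndufb8 has 2 models. Members were sorted into complexes by the start of the symbol, which need not match the place of each protein. This counted 39 as complex I subunits, 4 as complex I assembly factors, 4 under complex II, 8 under complex III, 17 under complex IV and 15 under complex V, the ATP synthase. Another 5 carry such a symbol without being known subunits (Cox4nb, Cox7a2l, Atp5s, Atp5sl and Atp5l-ps1).

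All samples came from mice labelled as C57BL/6, named C57BL/6J in the protocol, and 3 epithelial compartments were compared: colon, small intestinal (SI) crypt and SI villus. The SI samples came from the proximal small intestine, with crypts and villi separated by straining, while the colon epithelium was scraped off whole and not fractionated, so that a colon sample holds both crypt and surface cells. VDR ChIP-seq had 4 samples per compartment, from mice of 4 to 6 weeks taken 1 h after an injection of 10 ng/g of 1,25(OH)2D3, the active form of vitamin D. Its libraries held 10588783 to 17970894 fragments, and 3100376 to 14716273 after duplicate removal. ATAC-seq, which marks accessible DNA, had 3 samples per compartment, labelled as 90 days old, with 32767083 to 62692175 tags. The labels' shared protocol mentions 1,25(OH)2D3 for these samples too, whereas the study's methods describe ATAC mice that ate chow and name no injection, so the treatment of the ATAC mice is uncertain. For the ChIP mice the study's methods give another age than the labels do, so whether age differed between the assays is uncertain as well. No vehicle-treated or control-antibody sample was used here, so the part of a VDR peak that depends on 1,25(OH)2D3, or on open chromatin by itself, was not tested. Nothing in the labels tied samples to separate mice, and p-values measure the spread between samples, which may be technical.

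The respiratory chain of the inner mitochondrial membrane passes electrons from NADH (complex I) and succinate (complex II) through complex III to oxygen at complex IV, and complex V makes ATP from the proton gradient that results. Most subunits are encoded in the nucleus, and their genes are active in nearly all cells, with high need in absorptive epithelium. Known regulators of these promoters include NRF1, GABPA (an ETS factor), YY1, SP1 and the estrogen-related receptors (ERR). VDR binds DNA with the retinoid X receptor (RXR), typically at DR3 elements, direct repeats of AGGTCA-like hexamers spaced by 3 bases, and many other nuclear receptors recognise the same hexamer.

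The sequences at the VDR summits of 7 members are shown because their letters bear on the comparisons of motifs below. Each run is 121 bases of mm9 in the gene's own direction, taken around the summit of the pooled SI villus peak and shifted where needed to hold the element. Capitals mark the AGGTCA hexamer on either strand in Cox5b, Uqcrc1, Ndufs6 and Cox5a, the DR3 in Atp5e, and the ERR element TCAAGGTCA on either strand in Atp5b and Ndufv2.
Cox5b, chr1:36748138-36748258, plus strand: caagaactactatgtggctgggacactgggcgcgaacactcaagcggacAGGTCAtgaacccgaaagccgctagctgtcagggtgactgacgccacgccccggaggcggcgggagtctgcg
Atp5e, chr2:174289063-174289183, minus strand: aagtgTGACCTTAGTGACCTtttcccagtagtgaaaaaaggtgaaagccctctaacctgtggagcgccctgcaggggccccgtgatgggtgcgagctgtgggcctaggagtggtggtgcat
Uqcrc1, chr9:108838822-108838942, plus strand: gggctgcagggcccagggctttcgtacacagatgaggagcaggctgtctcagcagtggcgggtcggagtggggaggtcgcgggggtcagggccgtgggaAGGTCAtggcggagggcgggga
Ndufs6, chr13:73465772-73465892, minus strand: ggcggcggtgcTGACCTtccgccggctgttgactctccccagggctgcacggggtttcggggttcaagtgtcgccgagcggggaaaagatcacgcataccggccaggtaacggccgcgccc
Cox5a, chr9:57369260-57369380, plus strand: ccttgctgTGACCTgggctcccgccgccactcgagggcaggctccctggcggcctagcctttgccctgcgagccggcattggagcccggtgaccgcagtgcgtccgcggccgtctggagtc
Atp5b, chr10:127520465-127520585, plus strand: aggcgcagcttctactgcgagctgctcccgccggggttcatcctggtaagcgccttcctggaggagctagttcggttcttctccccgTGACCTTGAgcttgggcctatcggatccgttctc
Ndufv2, chr17:66450445-66450565, minus strand: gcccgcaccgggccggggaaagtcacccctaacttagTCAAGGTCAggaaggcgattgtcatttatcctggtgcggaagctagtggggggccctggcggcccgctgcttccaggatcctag
The Cox5b stretch lies upstream of the transcription start site (TSS). The Uqcrc1, Cox5a and Ndufv2 summits lie in introns, those of Ndufs6 and Atp5b in coding exons and that of Atp5e in an exon of a noncoding transcript.

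Open chromatin was found at most member promoters in every compartment. A promoter was called open, or bound, when an interval of the pooled list of that compartment came within 1 kb of the TSS. In colon, 74 members were open (80.4%, 95% Wilson interval 71.2 to 87.3%), against 49.0% of all genes. In SI crypt, 77 were open (83.7%, interval 74.8 to 89.9%), against 55.6% of all genes, and in the SI villus 77 were open, against 52.2% of all genes. These intervals cover counting error only. The same 74 members were open in all 3 lists (80.4% of members, against 46.3% of all genes), and 78 were open in at least 1 list (84.8%, against 58.5%). Ndufc2, a membrane-arm subunit of complex I, and Ndufaf1, a complex I assembly factor, lacked a pooled colon peak and were open in the SI crypt and SI villus. The Ndufc2 promoter had a peak in no colon sample, in 2 of 3 SI crypt samples and in 3 of 3 SI villus samples.

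In single ATAC samples, 64 members had a promoter peak in all 9 samples (69.6%, against 35.1% of all genes), and 7 had one in no sample (against 40.4% of all genes). The closed ones were chiefly genes with a restricted range of tissues. Ndufa4l2, which is induced by hypoxia, Cox7b2 and Cox8c, the testis forms of complex IV subunits, and Cox8b, a heart and muscle form, had no ATAC peak in any sample, and nor did Atp5l-ps1 and the second Ndufb8 model. Atp5d completed the 7, but inside its gene model, at +4038 bp, a colon VDR peak overlapped a pooled ATAC peak. Among other isoforms, Cox4i2, the lung form, had a peak in 1 SI villus sample, Cox6a2, a muscle form, in 2 SI villus samples, and Cox6b2, a testis form, in 2 SI crypt samples. Cox7a1, described as the heart and muscle isoform, was different: its promoter was open in all 9 samples, with fold enrichments of 6.80, 8.68 and 11.2 in colon, 11.6, 7.46 and 9.25 in the SI crypt, and 11.5, 9.85 and 7.76 in the SI villus.

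VDR-binding peaks lay at 48 member promoters in colon (52.2%, Wilson interval 42.1 to 62.1%), against 22.2% of all genes. The SI crypt list had 34 members (37.0%, interval 27.8 to 47.2%), against 17.6% of all genes. The SI villus list had 54 (58.7%, interval 48.5 to 68.2%), against 24.2% of all genes. In all, 60 members were bound in at least 1 list (65.2%, against 31.8% of all genes) and 29 in all 3 (31.5%, against 11.8%). Members are more often open than other genes, so the shares were also taken among open promoters only. There, 46 of 74 open members were bound in colon (62.2%, against 42.2% of open genes), 34 of 77 in the SI crypt (44.2%, against 30.8%) and 53 of 77 in the SI villus (68.8%, against 45.3%). Of members without a pooled ATAC peak, 2 of 18 were bound in colon (against 2.99% of such genes), 0 of 15 in the SI crypt (against 1.06%) and 1 of 15 in the SI villus (against 1.22%). The median fold enrichment of these peaks, pileup over local background, was 3.24 at members and 3.66 at all bound genes in colon, 4.53 and 4.14 in the SI crypt, and 4.33 and 4.08 in the SI villus. Promoters shared with a neighbour were more common among members, since 30 of them (32.6%) had another protein-coding TSS within 1 kb, against 12.1% of all genes, and a peak there cannot be assigned to either gene.

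By complex, the counts at complex III were the same in each list. This complex hands electrons from ubiquinol to cytochrome c. Of its 8 genes, the same 6 were bound in all 3 lists, namely the core subunits Uqcrc1 and Uqcrc2, the Rieske protein Uqcrfs1, and Uqcrb, Uqcrh and Uqcrq, while Uqcr10 and Uqcr11 were bound in none. Single samples backed some of these calls little. Uqcrh had a peak in SI crypt sample 1 only, and the Lrrc41 TSS lies 198 bp from its own. Uqcrfs1 had a peak in no SI villus sample. Complex IV, cytochrome c oxidase, had 10 of 17 members bound in colon, 8 in the SI crypt and 11 in the SI villus. Its 8 members bound throughout were Cox4i1, Cox5a, Cox5b, Cox6a1, Cox6b1, Cox6c, Cox7a1 and Cox7c. Complex V had 6 of 15 in colon, 8 in the SI crypt and 9 in the SI villus, and the 6 bound in all lists included the catalytic-head genes Atp5a1 and Atp5b and the stalk genes Atp5c1 and Atp5e. Complex I had 19 of 39 bound in colon (48.7%, against 22.2% of all genes), 8 in the SI crypt (20.5%, against 17.6%) and 21 in the SI villus (53.8%, against 24.2%). Its share in the pooled SI crypt list was thus near that of all genes. SI crypt sample 1 had peaks at further complex I genes that this list did not call. These were Ndufa6 (3.75), Ndufa9 (6.18), Ndufa13 (5.21), Ndufs5 (4.11) and Ndufv3 (5.16). In that sample 20.2% of all genes had a promoter peak. The pooled SI crypt list was also shorter, with 12702 intervals, against 22882 in colon and 18078 in the SI villus. Only Ndufa12, Ndufab1, Ndufb2, Ndufs4, Ndufs6 and Ndufv2 of complex I were bound in all 3 lists. In complex II, succinate dehydrogenase, the flavoprotein gene Sdha was bound in all 3 lists and the iron-sulfur gene Sdhb in none. The 14 members bound in the pooled colon and SI villus lists but not in the SI crypt list (15.2%, against 4.32% of all genes) included 11 complex I subunits, among them Ndufv1, which binds NADH. Of these 14, Ndufa9, Ndufa13, Ndufv3 and Cox6b2 (3.65) did have a promoter peak in SI crypt sample 1. Ndufa10 had a VDR promoter peak in no single sample. Whether complex I differs from the other complexes in this pattern was not tested.

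**Figure D1:**
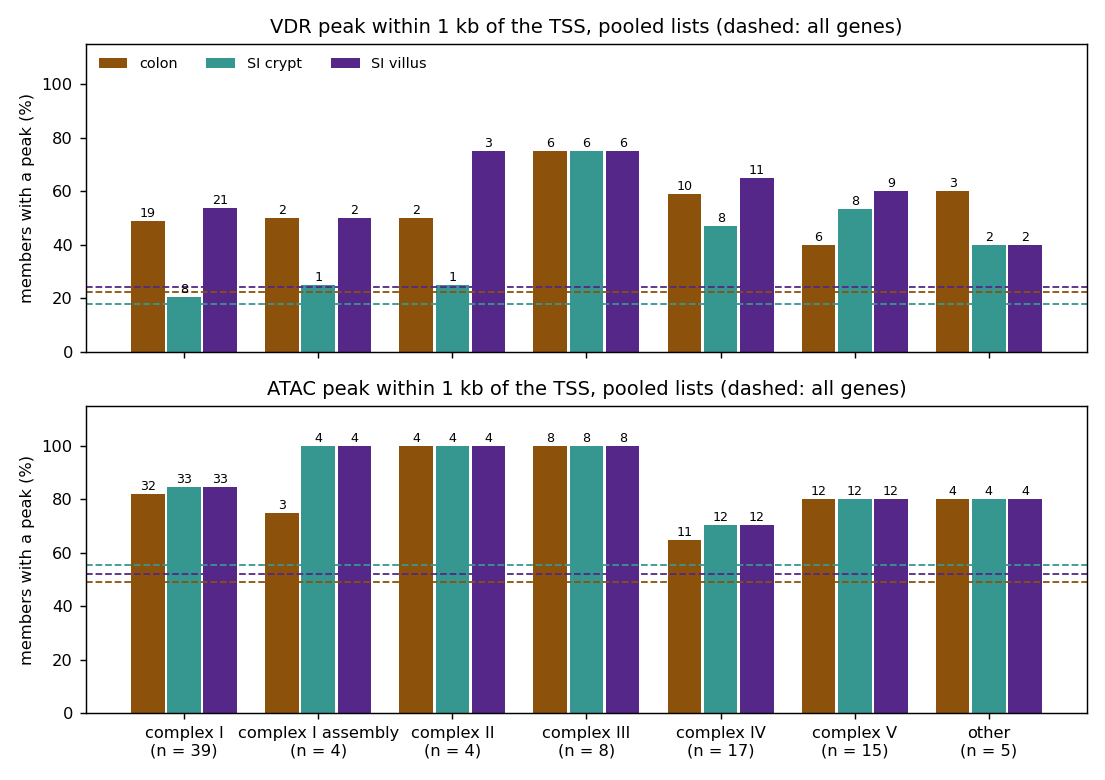
Percent of the members of each complex with a pooled VDR peak (top) or ATAC peak (bottom) within 1 kb of the TSS in colon, SI crypt and SI villus, with the number of members above each bar and the percent of all genes as dashed lines. Complex III has 6 of 8 members bound in each list, and complex I has 8 of 39 bound in the SI crypt.

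Single samples differed widely in how many members they called. In colon, the 4 VDR samples had 3, 8, 14 and 34 members with a promoter peak. In SI crypt they had 44, 9, 3 and 9, and in the SI villus 34, 23, 3 and 11. The 3 groups overlapped over nearly their whole range. The most members were called in the sample with the longest peak list, SI crypt sample 1 with 13381 peaks, and the fewest in the 3 samples with the shortest lists, of 1136, 1535 and 1760 peaks. In each of the 12 VDR samples the share of members was above that of all genes, by 1.71 to 4.34 times. With every VDR list held to its 1136 strongest peaks, each sample had 1 to 9 members, and the share was above that of all genes in 11 of 12 samples. The exception was colon sample 3 (1.09% of members, against 1.35% of all genes), and colon sample 2 was nearly level (1.09%, against 1.06%). SI crypt sample 2 (1.09%, against 0.993%) and SI villus sample 3 (1.09%, against 0.769%) were above by a single member as well. ATAC samples were far more alike, with 74, 74 and 80 members in colon, 81, 74 and 80 in the SI crypt, and 83, 80 and 71 in the SI villus, and the share was again above that of all genes in every one.

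**Figure D2:**
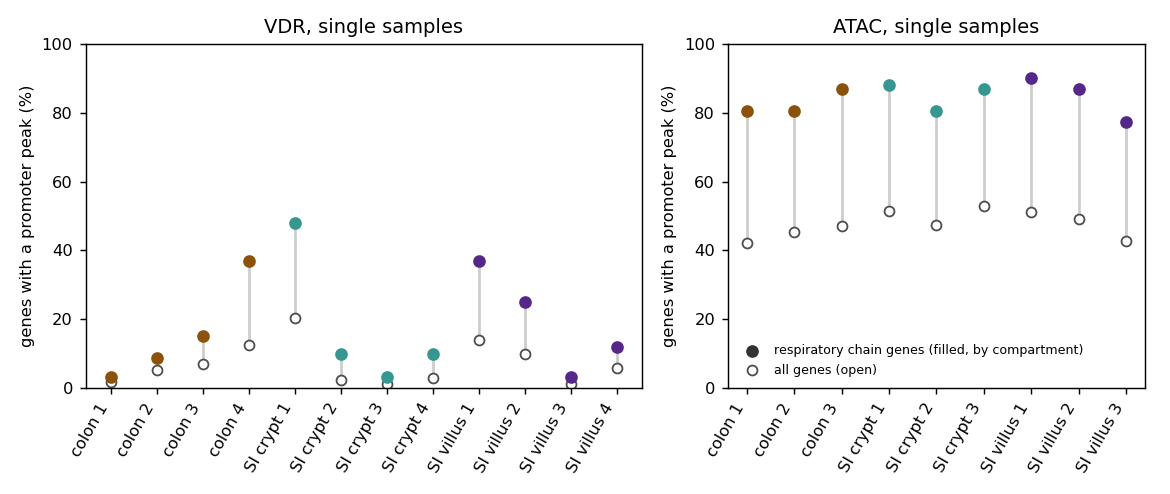
Percent of genes with a peak within 1 kb of the TSS in each of 12 VDR and 9 ATAC samples, for the 92 members (filled) and all genes (open). The filled point lies above the open one in all 21 samples, and the VDR samples of each compartment spread over most of the range.

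No difference between compartments passed a test. The number of bound members per sample averaged 14.8 ± 13.6 in colon, 16.3 ± 18.7 in the SI crypt and 17.8 ± 13.6 in the SI villus (SD, n = 4 each), and the Benjamini-Hochberg adjusted p was 0.886 for each of the 3 pairs (two-sided exact permutation test over samples). The excess of members over all genes, in percentage points, averaged 9.45 ± 10.4 in colon, 10.99 ± 11.3 in the SI crypt and 11.6 ± 9.35 in the SI villus, with an adjusted p of 0.971 for each pair by the same exact permutation test. For ATAC, the number of open members averaged 76.0 ± 3.46 in colon, 78.3 ± 3.79 in the SI crypt and 78.0 ± 6.24 in the SI villus (SD, n = 3 each), with an adjusted p of 1 for each pair (exact permutation test). The ATAC excess was 3.10 points higher in colon than in the SI crypt (adjusted p = 0.3, exact permutation test) and 2.52 points lower in the SI crypt than in the SI villus, also with an adjusted p of 0.3 in the exact permutation test, and it was 0.577 points higher in colon than in SI villus (adjusted p = 0.7). The design allows no two-sided p below 0.0286 with 4 against 4 samples, nor below 0.1 with 3 against 3, so the ATAC comparisons could not have passed 0.05. These limits hold before the adjustment over 3 pairs. A single VDR pair at its limit would therefore not have passed 0.05 either.

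Cox5b, a nuclear-encoded subunit of cytochrome c oxidase, had the tallest pooled member peak in each list. Its pooled VDR peak reached a fold enrichment of 7.33 in colon, 11.8 in the SI crypt and 19.5 in the SI villus, with −log10 q values of 74.9 in colon, 102 in crypt and 259 in villus. In single samples, colon had no peak, then 6.31, 4.43 and 11.5. SI crypt had 16.2, 13.0, no peak and 6.48, and SI villus had 24.4, 28.1, 7.12 and 6.85. SI villus samples 1 and 2 were thus above all others, while samples 3 and 4 lay within the range of colon, so the compartments overlapped. The summit stood upstream of the TSS, at −155 bp in colon and −134 bp in both SI lists, and in the SI lists 8 bp from the centre of the AGGTCA shown above (−142 bp).

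Atp5e, the epsilon subunit of the ATP synthase stalk, was the member with a VDR promoter peak in all 12 samples (0.402% of all genes had one in each). Fold enrichment was 8.12, 8.62, 5.42 and 7.81 in colon, 10.2, 5.13, 4.39 and 5.25 in the SI crypt, and 8.91, 7.43, 4.68 and 5.22 in the SI villus. The 3 ranges overlapped. The pooled summits did not coincide: they lay at −77 bp in colon, +155 bp in the SI crypt and +483 bp in the SI villus. The DR3 shown above, centred at +435 bp and 48 bp from the SI villus summit, was inside the SI crypt and SI villus intervals. It spans chr2:174289164-174289178, and the colon interval starts just beyond it, at 174289181. The intervals are centred on the summits, so this is not shown to be a difference between compartments. Atp5e was also open in all 9 ATAC samples, with fold enrichments between 10.5 and 18.9.

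Cox5a, another subunit of complex IV, had peaks in 9 samples, with no peak in colon sample 1, SI crypt sample 3 and SI villus sample 3. Its folds were 5.23, 4.12 and 7.10 in the other colon samples, 10.3, 4.30 and 4.02 in the SI crypt, and 7.52, 7.38 and 6.50 in the SI villus. Cox7a1, at 10 samples, had lower and steadier values: 4.11, 3.37, 3.11 and 3.08 in colon, 5.74, 4.19 and 3.85 in 3 SI crypt samples, and 5.48, 5.66 and 3.66 in 3 SI villus samples. Colon lay below the SI samples that had a Cox7a1 peak, except for SI crypt sample 4 and SI villus sample 4. Those samples fell inside the colon range, and SI crypt sample 3 and SI villus sample 3 had no peak. Atp5g2, which encodes the membrane c subunit that forms the ATP synthase rotor ring, also had a VDR peak in 10 samples, at 5.30, 5.24, 4.47 and 5.55 in colon, 8.93, 5.18, 5.10 and 4.42 in the SI crypt, and 5.51 and 6.88 in 2 SI villus samples, although the pooled intervals leave this promoter out.

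The complex III core gene Uqcrc1 had peaks in 2 colon samples (4.40 and 10.6), 2 SI crypt samples (11.8 and 7.34) and 2 SI villus samples (12.6 and 9.18). Uqcrc2, the other core gene, had 4.44 and 6.91 in 2 colon samples, 10.3 and 6.33 in 2 SI crypt samples, and 14.8, 15.0 and 7.19 in 3 SI villus samples, and its pooled summits lay on both sides of the TSS, at −257 bp in colon, +481 bp in the SI crypt and +493 bp in the SI villus. Ndufs6, a small zinc-binding subunit of complex I, had 5.11 and 7.87 in 2 colon samples, 6.82 in 1 SI crypt sample, and 13.6, 17.5 and 5.70 in 3 SI villus samples. The highest value of each of these 3 genes came from SI villus sample 1 or 2, whose lists held 10384 and 5992 peaks, against 1535 and 3779 in SI villus samples 3 and 4. Sdhd, a membrane anchor of complex II, was bound in the pooled SI villus list only, at a fold of 3.26 with peaks in 2 SI villus samples (4.07 and 5.44), but SI crypt sample 1 had a peak there of 5.71 as well, and the Timm8b TSS lies 52 bp away.

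**Figure D3:**
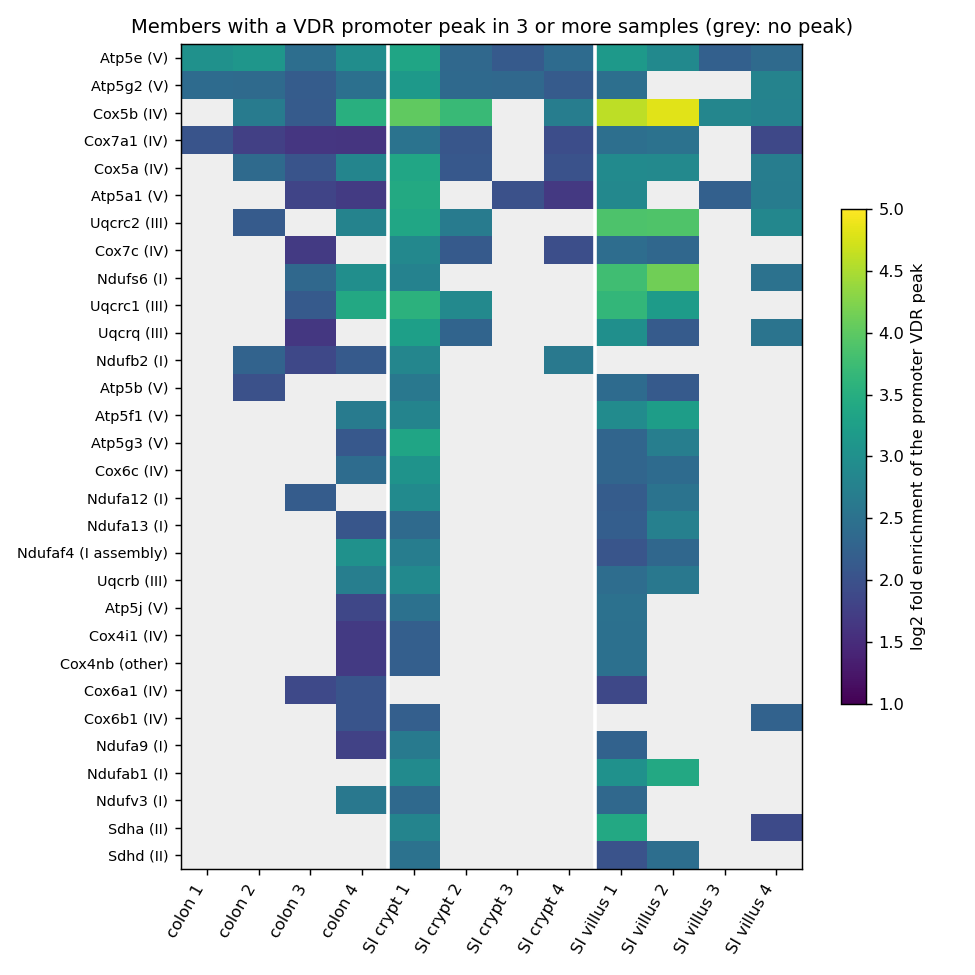
Fold enrichment (log2 scale) of the VDR promoter peak in each of 12 samples for the 30 members with a peak in 3 or more samples, ordered by the number of samples, with grey for no peak and the complex in parentheses. Atp5e has a peak in all 12, and SI crypt sample 1 has one at nearly every gene plotted.

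Across the set, 57 members had a VDR promoter peak in at least 1 single sample (62.0%, against 29.0% of all genes). There were 11 with peaks in 6 or more samples (12.0%, against 3.99%) and 5 with peaks in 9 or more (5.43%, against 1.53%), namely Atp5e, Cox5b, Cox7a1, Atp5g2 and Cox5a. Below these, Atp5a1, the alpha subunit of ATP synthase, had 8 samples, Uqcrc2 had 7, and Ndufs6, Uqcrc1, Uqcrq and Cox7c had 6 each. The remaining 35 members had none.

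Many pooled peaks had little support in single samples, at members as at other genes. Of the 48 colon promoter peaks, 33 overlapped a peak of a single colon sample, as did 33 of 34 in the SI crypt and 34 of 54 in the SI villus. Of distinct promoter peaks, 31.9% at members in colon overlapped no single sample (against 40.3% at all genes), 3.03% in the SI crypt (against 19.6%) and 37.7% in the SI villus (against 38.3%). Support from 2 or more samples was left for 10 members in colon (10.9%, against 6.28% of all genes), 11 in the SI crypt (12.0%, against 3.23%) and 21 in the SI villus (22.8%, against 7.81%). SI crypt sample 1 was the only support of 22 of the 34 SI crypt peaks, and without it 11 still overlapped another sample. Colon sample 4 was the only support of 19 of 48, with 14 overlapping another sample without it, and SI villus sample 1 was the only support of 10 of 54, with 24 overlapping another.

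The deposited pooled intervals left out part of the called peaks, and some stood at members. The ATAC peaks of Ndufa6, Ndufb5, Ndufs7, Ndufs8, Atp5f1 and Atp5g2 were left out in all 3 compartments although each was called in all 9 samples, with pooled folds in colon between 8.5 and 12.0. These 6 were therefore open by the peak tables. A left-out peak was the only VDR promoter peak at 5 members in colon (9.43% of members with any, against 4.72% over all genes). This held for 1 in the SI crypt (2.86%, against 5.07%) and 3 in the SI villus (5.26%, against 4.80%). The one left out in all 3 was that of Atp5g2, at a pooled fold of 5.55 in colon, 6.01 in the SI crypt and 7.24 in the SI villus. In the SI villus the left-out peak of Atp5f1, a peripheral stalk subunit of ATP synthase, reached 7.31, with its summit at +896 bp. The Wdr77 TSS lies 730 bp from that of Atp5f1, so this peak cannot be assigned to either gene. The same holds for the left-out ATAC peaks there, with summits at +631 to +871 bp. With the left-out peaks restored, 53 members were bound in colon (against 23.3% of all genes), 35 in the SI crypt (against 18.5%) and 57 in the SI villus (against 25.4%), and 80, 83 and 83 were open in colon, SI crypt and SI villus (against 50.8%, 57.3% and 54.0%).

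VDR summits at members sat inside the gene, just past the TSS. The median summit position was +257 bp in colon, +268.5 bp in the SI crypt and +236.5 bp in the SI villus, against +195, +209 and +182 bp over all bound genes. In colon 91.7% of member summits were downstream of the TSS (against 66.9% of all bound genes), in the SI crypt 88.2% (against 73.6%) and in the SI villus 90.7% (against 72.1%). Member ATAC summits centred on the TSS itself, with medians of −12 bp in colon, −16 bp in the SI crypt and +3 bp in the SI villus, so the VDR summits stood downstream of the middle of the open region. The VDR interval overlapped a pooled ATAC peak by at least 1 bp at 43 of 48 bound members in colon (against 74.4% of all bound genes), 27 of 34 in the SI crypt (against 85.5%) and 53 of 54 in the SI villus (against 90.8%). The summit itself lay inside an ATAC peak less often, at 29 of 48 members in colon (60.4%, against 49.6% of all bound genes), 15 of 34 in the SI crypt (44.1%, against 50.7%) and 39 of 54 in the SI villus (72.2%, against 70.0%). The summit was intronic at 26 of 48 members in colon (54.2%, against 37.6% of all bound genes), 16 of 34 in the SI crypt (47.1%, against 35.8%) and 26 of 54 in the SI villus (48.1%, against 32.7%). Cox5b, with its upstream summit, was thus an exception among the members.

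**Figure D4:**
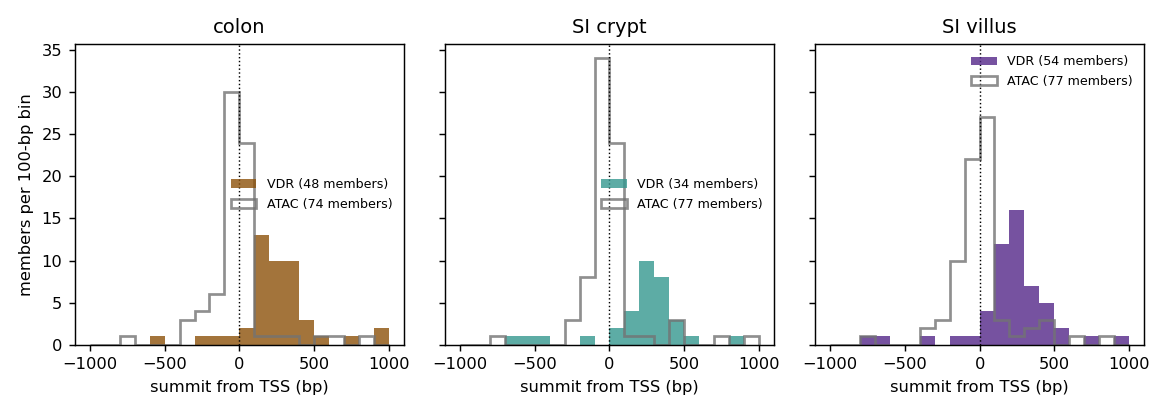
Number of members by distance of the pooled peak summit from the TSS, in bins of 100 bp, for VDR (filled) and ATAC (line) in colon, SI crypt and SI villus. VDR summits gather downstream, with medians of +257, +268.5 and +236.5 bp, and ATAC summits gather at the TSS.

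The letters at these summits were then searched on both strands within 200 bp of sequence centred on each summit. The DR3 was found at 0 of 47 distinct member peaks in colon, 0 of 33 in the SI crypt and 1 of 53 in the SI villus, at Atp5e, against 0.716%, 0.657% and 0.542% of all promoter VDR peaks in colon, SI crypt and SI villus. The single hexamer AGGTCA, a search added after the data were seen, was at 23 of 47 member peaks in colon (48.9%, against 15.7% of all), 17 of 33 in the SI crypt (51.5%, against 11.9%) and 25 of 53 in the SI villus (47.2%, against 12.6%). With an A before it, AAGGTCA was at 31.9% of member peaks in colon (against 5.21%), 30.3% in the SI crypt (against 3.88%) and 24.5% in the SI villus (against 3.37%). The longer ERR element TCAAGGTCA, which contains both strings, was at Atp5b, Cox6c and Ndufv2 in colon (6.38%, against 0.716%), at Cox6c in the SI crypt (3.03%, against 0.457%) and at Atp5b, Ndufv2 and Sdhd in the SI villus (5.66%, against 0.396%). A match describes letters and is not shown to be a site that VDR or ERR occupies.

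The hexamer was not limited to bound members. In the first 500 bp downstream of the TSS, AGGTCA was present in 37 of 60 members with a pooled VDR promoter peak (61.7%), in 16 of 32 members with none (50.0%) and in 9 of the 19 of these that were open (47.4%). It was present in 20.6% of all genes with a VDR promoter peak and in 23.2% of those with none. In the 500 bp upstream, the shares were 28.3% of members with a VDR peak and 31.3% of members with none, near the 25.8% of all genes. From 500 to 1000 bp downstream, it was in 45.0% of members with a VDR peak and 50.0% of members with none. The same shares of all genes were 24.4% and 26.0%. From 1000 to 500 bp upstream, they were 15.0% and 37.5% of members, against 28.6% and 27.9% of all genes. The excess of the hexamer at members thus lay mainly downstream of the TSS, out to 1000 bp, and was present there with and without a pooled VDR interval. Members without such an interval were not all free of called VDR peaks. Atp5g2 had one in 10 samples and Atp5f1 in 4, and pooled VDR peaks of Ndufa6, Ndufb5, Ndufs7 and Ndufs8 were left out of the intervals.

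**Figure D5:**
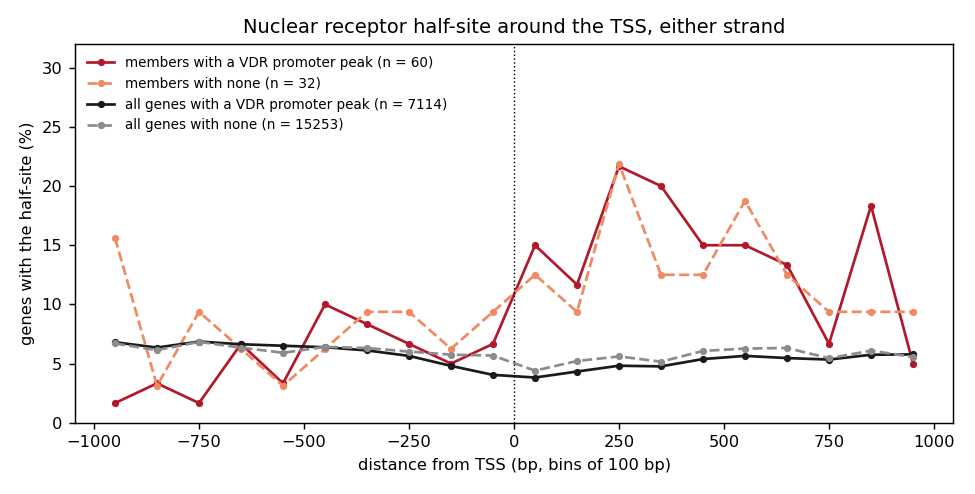
Percent of genes with AGGTCA on either strand in 100-bp bins around the TSS, for 60 members with and 32 without a pooled VDR promoter peak, and for all genes with and without one. Both member lines stand above both lines of all genes in the first 500 bp downstream, at 61.7% and 50.0% over that stretch against 20.6% and 23.2%.

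Strings of the known regulators were searched in the same way. NRF1 (GCATGCGC) and ETS (CCGGAAGT) strings were at 0 member VDR summits in all 3 lists, against 1.21 to 1.52% and 2.24 to 3.44% of all promoter VDR peaks. With 33 to 53 member peaks per list, such low shares leave 0 near the background. The YY1 string AAGATGGCG was at 1 member summit in colon (2.13%, against 1.34% of all), 3 in the SI crypt (9.09%, against 1.54%) and 4 in the SI villus (7.55%, against 1.54%), among them Atp5a1 and Ndufs6. The SP/KLF string GGGCGG was at 44.7% of member peaks in colon (against 33.5%), 39.4% in the SI crypt (against 44.5%) and 37.7% in the SI villus (against 43.8%). In RefSeq promoter windows of 250 bp before to 50 bp after the start, available for 74 RefSeq genes matched to 75 members, NRF1 was in 11 (14.9%, against 3.05% of 27025 genes), YY1 in 8 (10.8%, against 1.64%), ETS in 5 (6.76%, against 4.31%), SP/KLF in 33 (44.6%, against 38.2%), ERR in 2 (2.70%, against 0.466%) and the DR3 in 0 (against 0.0444%). NRF1 and YY1 strings were thus found in a larger share of member promoters than of promoters at large. In the same windows AGGTCA was in 17 of 74 (23.0%, against 18.1% of all). It is a shorter string than those of NRF1 and YY1, and the summit windows cover other stretches. The shares are therefore not comparable between strings or windows.

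Inside the genes, beyond 1 kb of the TSS, VDR peaks overlapped 31 members in colon (33.7%, against 24.4% of all genes), 17 in the SI crypt (18.5%, against 15.8%) and 11 in the SI villus (12.0%, against 17.6%). Members are short, with a median length of 7438 bp against 15427 bp. ATAC peaks lay over the bodies of fewer members: 6 in colon (6.52%, against 27.9%), 19 in the SI crypt (20.7%, against 40.1%) and 20 in the SI villus (21.7%, against 38.6%). The median fold of the body VDR peaks was 2.47 at members in colon (against 3.04 over all genes), 2.67 in the SI crypt (against 3.49) and 2.98 in the SI villus (against 3.15). Of distinct body peaks, 29 of 46 in colon (63.0%, against 55.3%), 14 of 22 in the SI crypt (63.6%, against 44.7%) and 14 of 18 in the SI villus (77.8%, against 60.9%) were found in no single sample.

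A few stood out by −log10 q. Sdhd had a peak 1601 bp into the gene in the SI villus, at a fold of 9.47 in the pooled list and found in 2 samples, outside any ATAC peak. At the same place the fold was 3.60 in the SI crypt and 2.25 in colon, in no single sample of either. Atp5d, the delta subunit of ATP synthase, had one near position +4038 in colon (fold 4.38, 3 samples), +4096 in the SI crypt (3.75, 2 samples) and +4102 in the SI villus (5.68, 3 samples). The nearest TSS to all 3 was that of Dos, at −1835 bp in colon, −1893 bp in the SI crypt and −1899 bp in the SI villus, so the peak cannot be assigned to Atp5d. Ndufs3, a core subunit of complex I, had a colon peak at +10077 bp (5.61, 2 samples), and Atp5a1 had a colon peak across the end of its gene model, with the summit at +9594 bp, in all 4 samples (3.10). The SI crypt peak over the long Atp5o model (7.38) lay 219 bp from the Donson TSS and 243141 bp from that of Atp5o. Cox4nb had a SI villus peak of 4.89 at +11247 bp in no single sample.

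The authors' 6 sets of sites that differed between compartments touched no member promoter. They touched few promoters of any gene: 0.152% of all promoters for the set higher in colon than crypt, 0.295% for crypt over colon, 0.326% for colon over villi, 0.635% for villi over colon, 0.201% for crypt over villi and 0.00% for villi over crypt. Such shares leave 0 of 92 near the background. Over gene bodies, 1 member (1.09%) had a site in each of 2 sets, against 1.07% of all genes for colon over crypt and 1.69% for colon over villi. Ndufs3 had one that was higher in colon than in villi, at chr2:90734820-90735024 (mm9), 10062 bp from its TSS and 8979 bp from that of C1qtnf4. Atp5o had one that was higher in colon than in crypt, at chr16:91710327-91710648, which lies 221445 bp from the Atp5o TSS and nearer to Cryzl1.

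Genes that work beside the members were counted in the same way. Of 42 other genes of the pathway (electron carriers, assembly factors and ubiquinone synthesis), 23 were bound in colon (54.8%, against 22.2% of all genes), 25 in the SI crypt (59.5%, against 17.6%) and 26 in the SI villus (61.9%, against 24.2%), with 19 bound in all 3 lists. In each compartment 37 of them were open (88.1%, against 49.0% of all genes in colon, 55.6% in crypt and 52.2% in villus). The tallest peaks in this list, named after their values were seen, exceeded most members. Cox18, a complex IV assembly factor, had folds of 9.99 in colon, 11.7 in the SI crypt and 15.3 in the SI villus and peaks in 11 samples, and Coq2, of ubiquinone synthesis, had 10.6, 11.3 and 11.4 and peaks in 9 samples. Gpd2, the mitochondrial glycerol-3-phosphate dehydrogenase that feeds electrons to ubiquinone, had 9.97 in colon, 10.4 in the SI crypt and 9.84 in the SI villus. Of 14 regulators, 7 were bound in colon (50.0%, against 22.2%), 5 in the SI crypt (35.7%, against 17.6%) and 6 in the SI villus (42.9%, against 24.2%). Ppargc1a, the coactivator known for raising mitochondrial gene expression, had neither a VDR nor an ATAC promoter peak in any sample, and Yy1 was bound in all 3 lists. Of 4 carriers, 3 were bound in colon, 2 in the SI crypt and 3 in the SI villus (against the same shares of all genes). Slc25a5, the main ADP/ATP exchanger, had a VDR peak in 10 samples and Slc25a3, the phosphate carrier, in 6.

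The labelled compartments were checked by open promoters of marker genes. Of 5 pan-epithelial markers, 5 were open in colon, 4 in the SI crypt and 5 in the SI villus. Of 5 colon markers, 4 were open in colon, 1 in the SI crypt and 2 in the SI villus. Of 6 small intestine markers, 2 were open in colon, 5 in the SI crypt and 6 in the SI villus. Of 5 crypt markers, 2 were open in colon, 5 in the SI crypt and 5 in the SI villus, so the crypt genes did not set SI crypt apart from SI villus. None of 5 immune markers was open in any sample, and of 5 stromal and muscle markers 1 was open in colon, 2 in the SI crypt and 1 in the SI villus. Their part in the member values was not tested.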

How the data were processed

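VDR ChIP-seq (12 samples) and ATAC-seq (9 samples) were analysed from the deposited peak files. Per the submitters' processing notes and the file headers, reads were trimmed (ATAC with cutadapt 1.9.1, VDR with NGmerge by the study's methods), aligned to mm9 with Bowtie2 2.2.6 and handled with SAMtools 0.1.19, Picard 2.18.27 and bedtools 2.17.0. The authors called peaks with MACS2 2.1.0.20150731 at q 0.05 without a control and with 1 fragment per position, in each sample and in the merged alignment of each compartment. Fold enrichment, the ratio of pileup to local background, and −log10 q were used as deposited. The pooled intervals, deposited as positions only, are centred on the summits, were matched to their MACS2 peaks by summit and length, and leave out part of those peaks. For VDR a blacklist filter is stated in the study's methods, and no reason is given for ATAC in the sources used here. A peak without counts holds no read depth, so the sample was the unit of every test. The 6 sets of differential sites give positions without fold or p.

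The TSS was the 5' end of the mm9 gene model. A promoter call needed 1 bp of a peak within 1 kb of the TSS, and a body call a peak over the gene that did not. Compartments were compared by two-sided exact permutation tests over samples, adjusted over 3 pairs (Python 3.11.15, numpy 2.4.6, scipy 1.17.1, and matplotlib 3.10.9 for figures). Promoter calls and tests were tested on simulated data. No set test was run. The members and gene lists were chosen with earlier results of these data known. Members were named by these rules: the 5 highest −log10 q per compartment, the most VDR samples (and every member with 9 or more), an authors' differential site, a pooled peak in 1 compartment with 2 supporting samples, no pooled ATAC peak somewhere, the 3 strongest body peaks per compartment, or a DR3. The members listed by complex, and those with 6 to 8 samples, were named after their values were seen. Alternatives were windows of 500 bp and 2 kb, summits, −log10 q of at least 5, equal list lengths, 2-sample support, other TSS and member choices, leaving out each sample, a replicate block, and 2 were added after the data were seen: restoring the left-out peaks, and dropping them from single samples. Sequences came from the mm9 genome, and promoter windows from RefSeq.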

Additional observations from a re-analysis of the deposited data

Results flagged for a closer look

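SI crypt VDR sample 1 had 44 members with a promoter peak, far from the 9, 3 and 9 of the other SI crypt samples. Its gap to the nearest sample was 0.854 of the group's range. There were 6 combinations of a VDR group and a measure looked at in this way, and chance gives such a gap in about 1 of 20. The measures of 1 group are related to each other. The same library had the fewest fragments after duplicate removal of all VDR samples (3100376 of 10859762) and the longest peak list (13381 peaks). With every VDR list held to its 1136 strongest peaks, it had 9 members and the other SI crypt samples 1, 3 and 2.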

How the results depend on the processing

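None of the 12 differences between compartments passed an adjusted p of 0.05 under any alternative run, where the lowest adjusted p was 0.3 (exact permutation tests), and 34 of 204 alternative values turned sign. Leaving out 1 sample at a time gave bound members per sample of -7.92 to 7.75 for colon minus SI crypt, -9.42 to 2.42 for colon minus SI villus and -10.8 to 3.92 for SI crypt minus SI villus. The VDR excess over all genes ran from -6.56 to 4.00, -7.17 to 1.67 and -6.14 to 3.21 points for the same pairs, open members from -4.5 to -1, -5.5 to 0.5 and -3.17 to 2.83, and the ATAC excess from 1.97 to 4.46, -0.790 to 1.94 and -3.89 to -1.49 points. A 2 kb window turned open members to -1 for SI crypt minus SI villus and the ATAC excess to -0.498 points for colon minus SI villus. With −log10 q of at least 5, open members became 2 for colon minus SI crypt and 2.67 for colon minus SI villus, and with lists of equal length 10.7 and 11. Equal lists also gave 1 bound member and 0.880 points of excess for SI crypt minus SI villus. The cause was not tested.

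Of the pooled counts, support from 2 samples left 10 bound members in colon, 11 in the SI crypt and 21 in the SI villus. Counting only the 62 members with no other TSS within 1 kb gave 35 bound in SI villus (56.5%, against 21.6% of such genes) and 46, 49 and 49 open in colon, crypt and villus (against 44.5%, 51.8% and 48.0%), since fewer members were counted. With the same-numbered samples as a replicate block (exact sign-flip test), the adjusted p was 0.875 for every VDR pair and 0.375 to 1 for ATAC. This test cannot go below 0.125 with 4 pairs or 0.25 with 3, so it could change no call. The numbers were not taken as pairs: the labels tie no number to a mouse, although the study's methods take colon and SI from the same group of mice, and correlations of same-numbered deviations ran from -0.310 to 0.508 for VDR and -0.122 to 0.0508 for ATAC, and a sample correlated best with its own number in 6 of 24 VDR and 5 of 18 ATAC cases. A peak missing from a list was not detectable at that library's depth and is not shown to be absent. List lengths differed up to 13381 against 1136 peaks between VDR samples.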
